A study of Homo sapiens with 12 samples.

Results

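The respiratory chain genes of human cells were examined in RNA-seq libraries of HEK293T, a line derived from human embryonic kidney. The genes were chosen by symbol and not by their values, although earlier results of these data were known. They are the coding genes named NDUFA, NDUFB, NDUFC, NDUFS or NDUFV with a number, SDHA to SDHD, UQCR, CYC1, COX4 to COX8 and ATP5, and the 13 coding genes of the mitochondrial genome. These rules gave 103 genes, 90 nuclear and 13 mitochondrial, among 19863 coding genes. A nuclear gene is called a member of complex I in 37 cases, complex II in 4, complex III in 10, complex IV in 19 and complex V in 20, and the mitochondrial genes add 7, 0, 1, 3 and 2. The rules take in some paralogues, regulators and copies that are not core subunits, such as ATP5IF1, an inhibitor of ATP synthase, and UQCRHL, an intronless copy of UQCRH.

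Oxidative phosphorylation is carried out by 5 protein complexes of the inner mitochondrial membrane. Complex I takes electrons from NADH and complex II takes them from succinate. Complex III passes them to cytochrome c, complex IV passes them to oxygen, and complex V uses the proton gradient to make ATP. Subunits of complexes I, III, IV and V are encoded by 2 genomes, while complex II is wholly nuclear. The mitochondrial genes are transcribed in the organelle as long precursors of both strands, and the nuclear genes are transcribed 1 by 1 in the nucleus. NRF1, GABPA (an ETS factor) and YY1 are transcription factors long known for sites in the promoters of nuclear respiratory genes.

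The 12 libraries came from wild-type HEK293T transfected with a control siRNA (siCTL) or an siRNA against 1 of 5 genes (siCARM1, siCHD4, siHDAC2, siGATAD2A, siKDM1A), and each of the 6 groups held 2 libraries. CARM1 is an arginine methyltransferase. CHD4, HDAC2 and GATAD2A are subunits of the chromatin remodelling complex NuRD, and KDM1A is a lysine demethylase that was studied with it. Each knockdown was set against siCTL, to ask which genes depend on CARM1 and on these chromatin proteins. The paper's methods list 1 siRNA sequence each for CHD4, HDAC2, GATAD2A and KDM1A, and 2 for CARM1 without saying which was sequenced. Loss of the target and other effects of the siRNA used therefore cannot be told apart here. All knockdowns were transient, the labels give neither the time after transfection nor separate cultures for the replicates, and p-values then measure only the spread between these libraries.

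Counts on genes came to between 19308315 and 28648657 per library. The targeted genes fell in their own knockdowns, with log2 fold changes of −2.38 for CARM1, −2.35 for HDAC2, −1.75 for GATAD2A and −2.59 for KDM1A, but only −0.54 for CHD4. Of 7 HEK293T markers, between 4 and 6 reached a mean of 1 CPM (counts per 1000000 counts, scaled by TMM) per group, with VIM, KRT8, KRT18 and NEFL in all 6 groups and NEFM in none, and their sum was 1858 to 3119 CPM. Of 6 blood markers 1 reached it, and the sum was 1.93 to 9.01 CPM, with PTPRC and HBB at 0 in siCTL. Of 5 fibroblast markers 4 reached it (85.7 to 155.6 CPM in sum, DCN at or near 0), and of 5 breast epithelial markers 3 (92.0 to 121 CPM, TFF1 at or near 0). The part of these markers in the results below was not tested. The labels name 2 sequencing companies without saying which library went to which, so company and group cannot be told apart.

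Of the 103 genes, 95 passed the filter on low values (FPKM, counts per 1000 exonic bases and 1000000 counts, above 0.5 as a mean of any group), 82 nuclear and all 13 mitochondrial. The 8 others were the tissue-restricted isoforms COX4I2, COX6A2, COX7A1, COX7B2 and COX8C, the complex IV protein paralogue NDUFA4L2, and the readthrough genes ATP5MF-PTCD1 and NDUFC2-KCTD14. A gene was called lower or higher when edgeR's quasi-likelihood test gave an adjusted p (Benjamini-Hochberg, over all 12830 tested coding genes) of 0.05 or less and the fold was 1.2 or more. Bulk libraries cannot tell fewer cells of a kind from less RNA per cell.

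Promoter sequences are shown for the nuclear members whose levels are described first, as the letters next to which transcription of these genes starts. RefSeq sequences (GRCh38.p14) from 250 bases before to 50 bases after a start were found for 70 of the 90 nuclear members, at 83 starts. The printed genes are NDUFS1 and NDUFB10, called lower in 4 of 5 knockdowns, ATP5MC2, which had the largest fall among members of at least 5 CPM in siCTL, and UQCRC2, which was called higher in 3. Capitals mark the NRF1 letters GCATGCGC, the ETS letters CCGGAAG or the YY1 letters AAGATGGCG, searched on both strands. NDUFS1 is shown at chr2:206159395-206159694 (minus strand), the one of its 2 starts with capitals. NDUFB10 is at chr16:1959288-1959587 (plus strand), ATP5MC2 at chr12:53676034-53676333 (minus strand), 1 of its 3 starts, and UQCRC2 at chr16:21953111-21953410 (plus strand).
NDUFS1: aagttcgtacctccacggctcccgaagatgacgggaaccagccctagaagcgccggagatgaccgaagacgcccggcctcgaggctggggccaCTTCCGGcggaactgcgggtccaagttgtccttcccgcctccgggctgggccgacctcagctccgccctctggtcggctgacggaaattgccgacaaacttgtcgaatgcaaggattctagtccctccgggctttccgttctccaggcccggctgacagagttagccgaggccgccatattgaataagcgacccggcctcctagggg
NDUFB10: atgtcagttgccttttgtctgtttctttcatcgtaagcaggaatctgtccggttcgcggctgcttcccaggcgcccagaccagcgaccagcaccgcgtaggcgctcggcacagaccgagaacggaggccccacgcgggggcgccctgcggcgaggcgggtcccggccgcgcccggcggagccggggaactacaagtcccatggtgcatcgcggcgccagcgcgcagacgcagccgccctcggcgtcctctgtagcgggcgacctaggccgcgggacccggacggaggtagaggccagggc
ATP5MC2: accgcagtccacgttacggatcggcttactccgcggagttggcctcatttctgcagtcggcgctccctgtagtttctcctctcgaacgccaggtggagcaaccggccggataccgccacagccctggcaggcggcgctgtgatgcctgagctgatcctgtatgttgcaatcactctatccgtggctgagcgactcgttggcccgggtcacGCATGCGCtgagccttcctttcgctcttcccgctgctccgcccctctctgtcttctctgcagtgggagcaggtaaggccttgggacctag
UQCRC2: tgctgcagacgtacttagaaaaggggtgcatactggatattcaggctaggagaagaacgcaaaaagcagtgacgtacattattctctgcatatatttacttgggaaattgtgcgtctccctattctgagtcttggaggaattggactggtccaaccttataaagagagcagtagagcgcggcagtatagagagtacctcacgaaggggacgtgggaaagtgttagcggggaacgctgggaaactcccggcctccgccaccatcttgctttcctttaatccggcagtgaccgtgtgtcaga

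The NDUFS1 window held ETS letters on the reverse strand, starting at position −157 from the transcription start. The ATP5MC2 window held NRF1 letters from position −40, and another of its starts held them at −58. The NDUFB10 and UQCRC2 windows held none of the 3 motifs, which says only that these letters are absent there. Across the 83 windows of nuclear members, 18.1% held the NRF1 letters, against 4.57% of 15193 windows of tested coding genes and 3.05% of all 35116 windows. ETS letters stood in 26.5%, against 16.4% and 10.3%, and YY1 letters in 10 of the 83 windows, against 3.36% and 1.75%. At least 1 motif was found in 34 of the 70 members. The members have shared letters more often here, but these shares are a description of the windows and were not tested.

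The mitochondrial and nuclear parts of the chain held similar amounts of RNA counts in these libraries. In siCTL, the 13 mitochondrial genes took 0.584% and 0.568% of all counts on genes, and the 90 nuclear members took 0.598% and 0.596%. MT-CO1, the catalytic subunit of complex IV, alone made up 68.7% to 73.2% of the mitochondrial counts. The mitochondrial share was highest in siKDM1A, at 0.680% ± 0.034 (SD, n = 2), followed by siHDAC2 at 0.656% ± 0.014 and siGATAD2A at 0.642% ± 0.0053. It was 0.549% ± 0.011 in siCHD4 and 0.536% ± 0.027 in siCARM1. Both libraries of siHDAC2, siGATAD2A and siKDM1A lay above both siCTL libraries, and both libraries of siCARM1 and siCHD4 lay below them. With MT-CO1 left out, the mitochondrial share was 0.168% in siCTL, 0.192% in siGATAD2A, 0.187% in siHDAC2 and 0.185% in siKDM1A. It was then 0.167% in siCARM1 and 0.163% in siCHD4, and 1 library of each lay between the siCTL libraries (0.173% and 0.164%). The order of the knockdowns and the separation of siCARM1 and siCHD4 from siCTL thus depended on MT-CO1. The nuclear share was lower than in either siCTL library in all 10 knockdown libraries, lowest in siCHD4 at 0.534% ± 0.0041 (SD, n = 2) and then 0.560% ± 0.0057 in siHDAC2. It was 0.570% ± 0.0040 for siGATAD2A, 0.573% ± 0.0014 for siCARM1 and 0.579% ± 0.0017 for siKDM1A. The knockdowns share the same siCTL libraries, and an exact permutation test of 2 against 2 cannot go below a two-sided p of 0.333, so these shares are given without a test.

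**Figure D1:**
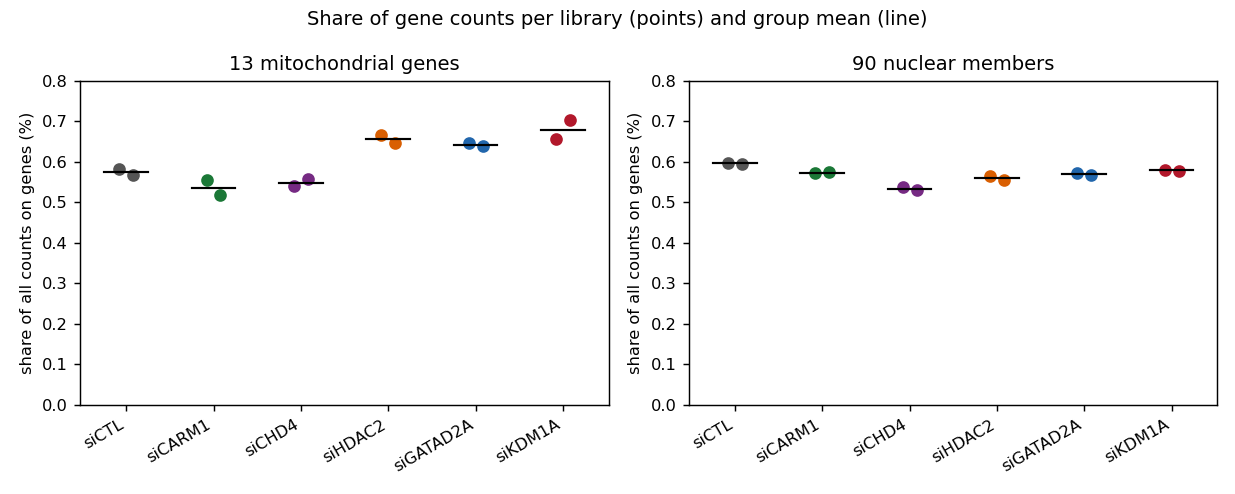
Share of all counts on genes (y axes, percent, from 0) taken by the 13 mitochondrial genes (left) and the 90 nuclear members (right) in each of the 6 groups, with 1 point per library and a line at the mean of 2. The mitochondrial share ranged from 0.517% to 0.704% and the nuclear share from 0.531% to 0.598%, with both siCTL points highest on the right.

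More nuclear members were called lower than higher in each knockdown, except that a length correction turned siKDM1A to 4 lower and 5 higher. In siCARM1, 12 of 82 were lower and 5 higher, beside 14.8% lower and 14.6% higher among all tested genes. In siCHD4, 24 were lower and 4 higher, beside 25.1% and 23.7%. In siHDAC2, 6 were lower and 2 higher, beside 9.27% and 10.4%. In siGATAD2A, 11 were lower and 6 higher, beside 18.4% and 15.4%, and in siKDM1A, 6 were lower and 3 higher, beside 11.8% and 14.0%. The share of nuclear members called lower, 14.6%, 29.3%, 7.32%, 13.4% and 7.32% in the same order, was thus near or below the background except in siCHD4, where it was above by about 4 points, and the share called higher lay below the background in all 5.

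None of the mitochondrial genes was called lower, although a length correction gave 2 lower in siCHD4. The absence of lower calls also depended on the fold minimum. Without that minimum, 2 were lower and 1 higher in siCARM1, and 2 were lower and 3 higher in siCHD4. None was then lower in siHDAC2, siGATAD2A or siKDM1A, where 5, 9 and 5 were higher. With the fold minimum, higher calls numbered 6 of 13 in siGATAD2A, 4 with siKDM1A, 2 with siHDAC2 and 1 each with siCARM1 and siCHD4. That is 46.2% of the 13 genes in siGATAD2A and 30.8% in siKDM1A, against the backgrounds of 15.4% and 14.0% given above. The 13 genes share precursor transcripts and are not separate samples of a condition. The median log2 fold change of the mitochondrial genes was 0.21 in siGATAD2A, 0.16 for siHDAC2, 0.05 for siKDM1A, 0.01 for siCHD4 and −0.00 for siCARM1. For nuclear members it was −0.14 in siCHD4 and between −0.07 and −0.05 for the rest, beside medians of all tested genes between −0.01 and 0.00. Without siCTL replicate 1 the nuclear medians of siHDAC2, siKDM1A and siCARM1 were −0.01, −0.01 and −0.04, and without siCTL replicate 2 they were −0.11, −0.08 and −0.13. The siHDAC2 median was −0.04 without siHDAC2 replicate 2. The mitochondrial median of siKDM1A went from −0.00 without siKDM1A replicate 2 to 0.15 without siKDM1A replicate 1. Between 51 and 60 of the 82 nuclear members had a value below 0 in each knockdown, which is 62.2% to 73.2%, against 49.9% to 51.3% of all tested genes.

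Some of these counts rest on 1 library. Without siKDM1A replicate 2, none of the mitochondrial genes was called in siKDM1A, and 1 was without siCTL replicate 2. In siHDAC2, 1 mitochondrial gene was called without siHDAC2 replicate 1, and in siCHD4, 2 were without siCHD4 replicate 1 or siCTL replicate 1. Nuclear members called lower in siKDM1A came to 10 without siCTL replicate 2. Nuclear members called higher came to 8 in siCARM1 without siCTL replicate 1, to 4 in siHDAC2 without siCTL replicate 2, and to 5 in siKDM1A without siKDM1A replicate 1. The siGATAD2A count of 6 mitochondrial genes stayed between 4 and 7 with 1 library left out. A correction for GC content gave 10 nuclear members lower and 2 higher in siKDM1A and called no mitochondrial gene there, and a length correction called 5 mitochondrial genes higher in siHDAC2.

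**Figure D2:**
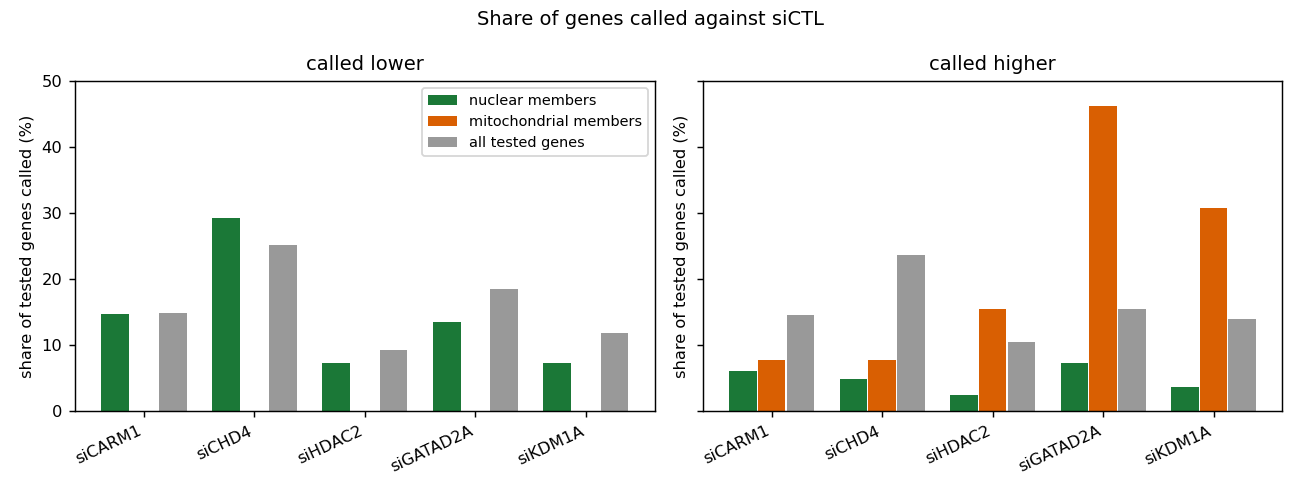
Share of tested genes (y axis, percent) called lower (left) and higher (right) against siCTL in each knockdown, for 82 nuclear members (green), 13 mitochondrial members (orange) and all 12830 tested coding genes (grey). No orange bar stands on the left, and the orange bars for siGATAD2A (46.2%) and siKDM1A (30.8%) are the tallest on the right.

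**Figure D3:**
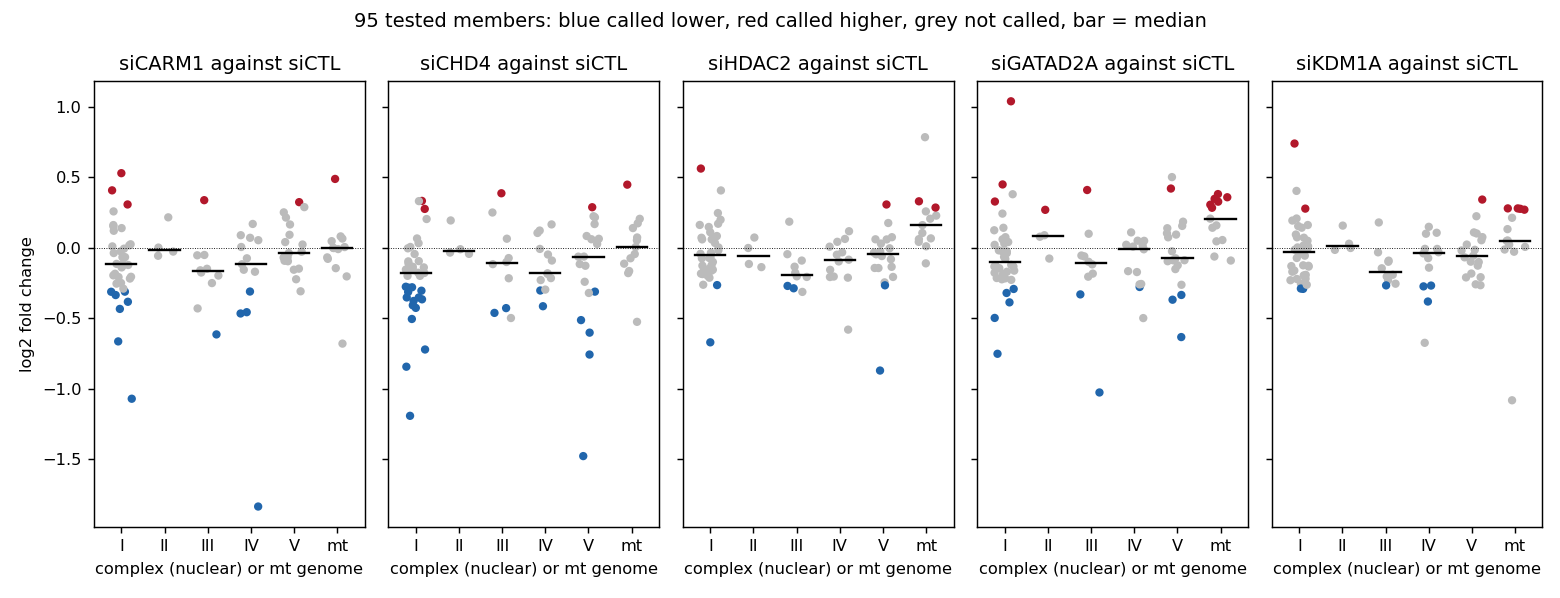
Log2 fold change against siCTL (y axis) of the 95 tested members in each of the 5 knockdowns, by complex for nuclear members and in 1 column (mt) for the mitochondrial genes. Each point is a gene, blue if called lower, red if called higher and grey if not called, and bars are medians, from −0.19 for complex III in siHDAC2 to 0.21 for the mitochondrial genes in siGATAD2A.

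Calls of single nuclear members were also counted over the knockdowns. Of the 82, 35 were called in no knockdown, 38 were lower in at least 1 and 9 were higher in at least 1, and none was called in both directions. Of the 38, 24 were lower in exactly 1 knockdown. NDUFS1 and NDUFB10 were lower in 4, and COX8A, NDUFC2 and UQCRB were lower in 3. ATP5PB, NDUFA8 and UQCRC2 were higher in 3. Since all comparisons share the siCTL libraries, a call in several of them is not several separate observations. The matching shares over all tested genes were not counted, so these numbers do not set the members apart from other genes.

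Complex I held the 2 nuclear members that were called lower in 4 knockdowns. NDUFS1 (ENSG00000023228.14), the largest core subunit of complex I, which carries iron-sulfur clusters, was at 206 and 222 CPM in siCTL. It was at 164 and 182 CPM in siCARM1, 180.2 and 177 in siHDAC2, 152 and 151 in siGATAD2A, and 172 and 178 in siKDM1A, all below both siCTL libraries. In siCHD4 it stood at 198 and 203 CPM. The log2 fold changes were −0.31, −0.26, −0.50 and −0.29 in the 4 knockdowns where it was called and −0.10 in siCHD4, with a standard error near 0.047 and adjusted p between 3.8e-10 and 6.2e-05 in the 4. The call in siHDAC2 lay at the fold minimum and was lost without siCTL replicate 2 (−0.21) or siHDAC2 replicate 2 (−0.25). It was also lost with a replicate block (−0.26), with only the 2 groups compared (−0.26), with unstranded counts (−0.24) and with FPKM above 1 as the filter (−0.26). The call in siCARM1 was lost without siCTL replicate 2 (−0.26) or siCARM1 replicate 1 (−0.24), and the one in siKDM1A was lost without siCTL replicate 2 (−0.24).

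NDUFB10 (ENSG00000140990.15), an accessory subunit of the membrane arm, fell most among complex I members in siCHD4. Its level was 96.9 and 84.3 CPM in siCTL and 40.9 and 38.3 CPM in siCHD4. It was 60.7 and 53.2 CPM in siCARM1, 56.5 and 50.9 in siGATAD2A, 74.6 and 73.5 in siKDM1A, and 72.5 and 78.1 in siHDAC2. All 10 knockdown libraries lay below both siCTL libraries, with log2 fold changes of −1.19 in siCHD4, −0.75 for siGATAD2A, −0.66 for siCARM1, −0.29 for siKDM1A and −0.26 for siHDAC2. The siHDAC2 value missed the fold minimum. The fall in siCHD4 exceeded each of the other 4 by 0.44 to 0.93, with edgeR adjusted p of at most 4.9e-06. The siKDM1A call was lost without siCTL replicate 1 (−0.19) and with a length correction (−0.26).

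NDUFC2, another accessory subunit of the membrane arm, and NDUFS3, a core subunit of the peripheral arm, showed other orders of the knockdowns. NDUFC2 (ENSG00000151366.13) was at 26.3 and 30.03 CPM in siCTL, 12.9 and 14.0 in siCARM1, 17.8 and 17.7 in siHDAC2, and 21.6 and 21.7 in siGATAD2A. Its log2 fold changes were −1.07 (standard error 0.088), −0.67 and −0.39 there, with adjusted p of 2.1e-11, 2.8e-07 and 0.00022. It stood at 25.9 and 26.4 CPM in siCHD4 (−0.11, not called) and shares 18.6% of its exonic bases with other genes, among them the readthrough NDUFC2-KCTD14. NDUFS3 (ENSG00000213619.11) was called in siCHD4 alone, at 66.6 and 65.9 CPM against 110.2 and 127 in siCTL. Its log2 fold change there was −0.84 (standard error 0.059, adjusted p = 1.5e-13), and between −0.15 and −0.13 in the other 4.

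In siCHD4, 15 of 36 tested nuclear members of complex I were called lower and 2 higher, among them NDUFA1, whose libraries overlap siCTL, with a larger share of lower calls (41.7%) than in the 25.1% of all tested genes. Beside NDUFB10 and NDUFS3 they include NDUFB3 (−0.72), NDUFA6 (−0.50), NDUFA9 (−0.43), NDUFA5 (−0.41), NDUFB11 (−0.38) and NDUFS8 (−0.35), and the other 7 lay between −0.36 and −0.28. NDUFS8, the nuclear complex I member with the highest level per transcript length in siCTL (223 FPKM over the canonical transcript), went from 170.1 and 165 CPM to 132 and 130.5. Complex I counts were 7 lower and 3 higher in siCARM1, 5 and 3 for siGATAD2A, 2 and 1 for siHDAC2, and 2 and 2 for siKDM1A. The lower shares were 19.4%, 13.9%, 5.56% and 5.56% in that order, beside 14.8%, 18.4%, 9.27% and 11.8% of all tested genes. Higher shares were 8.33%, 8.33%, 2.78% and 5.56%, each below the 14.6%, 15.4%, 10.4% and 14.0% of all tested genes. In siCHD4 the higher share of complex I was 5.56%, beside 23.7%. NDUFA8, an accessory subunit with paired cysteines, was higher in siCARM1 (0.31), siGATAD2A (0.33) and siKDM1A (0.28) and at 0.01 in siCHD4. Its siKDM1A value fell under the fold minimum without siCTL replicate 1 (0.26) and with a GC correction (0.23). NDUFB5 was higher in siCARM1 alone (0.41) and stood at −0.22 in siGATAD2A, which was not called. NDUFA13 rose by 1.04 in siGATAD2A from a mean of only 3.31 CPM, and 21.0% of its exonic bases are shared with other genes.

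Complex II had no member called lower. SDHC, 1 of its 2 membrane anchors, was at 104 and 101.2 CPM in siCTL, and siGATAD2A had 123 and 125 CPM. The log2 difference was 0.27 (standard error 0.049, adjusted p = 2.7e-05 in edgeR). That is just past the fold minimum, and the call was lost without siCTL replicate 2 (0.25) or siGATAD2A replicate 2 (0.26). It was also lost with a GC correction (0.25) and with unstranded counts (0.26). The SDHC value was between −0.11 and 0.03 in the other 4 knockdowns. The flavoprotein subunit SDHA lay between −0.03 and 0.09, the other anchor SDHD between −0.14 and 0.00, and the iron-sulfur subunit SDHB between 0.07 and 0.22, without a call. SDHA levels are low here (17.4 CPM in both siCTL libraries), and 21.7% of its exonic bases are shared with other genes.

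Complex III had members in both directions. UQCRC2, a core scaffold subunit, was at 111 and 115 CPM in siCTL, and at 141 and 145 in siCARM1, 151 and 145 in siCHD4, and 149 and 151 in siGATAD2A. The log2 fold changes were 0.34, 0.39 and 0.41 (standard errors of 0.046), with edgeR adjusted p of at most 4.6e-07. In siHDAC2 and siKDM1A it stood at 0.19 and 0.18, under the fold minimum, with all 4 libraries above siCTL.

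UQCRB, a small subunit at the quinone site, went the other way. It was at 51.5 and 44.3 CPM in siCTL, 31.1 and 31.4 in siCARM1, 37.7 and 33.4 in siCHD4, and 36.3 and 39.8 in siGATAD2A. The log2 fold changes were −0.61, −0.43 and −0.33 there, and −0.21 and −0.20 without a call in siHDAC2 and siKDM1A, the siGATAD2A call being lost without siCTL replicate 1 (−0.22) or siGATAD2A replicate 1 (−0.26). CYC1, cytochrome c1, fell in siCHD4 (−0.46) and siHDAC2 (−0.27). UQCR11 fell in siHDAC2 (−0.29) and siKDM1A (−0.27) and stood at 0.25 in siCHD4, which was not called. Both its calls were lost without siCTL replicate 2 (−0.24 and −0.22) or without replicate 2 of the knockdown itself (−0.26 and −0.24). They were also lost with a length correction (−0.23 and −0.25). UQCRH, the nuclear complex III member with the highest level (229 FPKM), lay between −0.20 and −0.10 with no call. Its copy UQCRHL, called at −1.02 in siGATAD2A, was at 1.998 and 1.993 CPM in siCTL, where pairs that match both genes are not counted.

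Nuclear members of complex IV had lower calls only. Of 13 tested, these were 4 in siCARM1 (30.8%), 3 with siKDM1A (23.1%), 2 with siCHD4 (15.4%), 1 with siGATAD2A (7.69%) and 0 with siHDAC2. Among all tested genes, lower calls were 14.8%, 11.8%, 25.1%, 18.4% and 9.27% in the same order. Higher calls were 14.6%, 14.0%, 23.7%, 15.4% and 10.4% of all tested genes. With only 13 members tested, the absence of higher calls was not tested against these shares. COX6B1, a subunit on the intermembrane side, was at 76.3 and 68.0 CPM in siCTL and 54.2 and 50.0004 CPM in siCARM1. On the log2 scale the change was −0.46, with a standard error of 0.060 (adjusted p = 1.8e-07). In siGATAD2A it stood at 60.4 and 60.3 CPM (−0.26, under the fold minimum). COX8A was called in siCARM1, siCHD4 and siKDM1A (−0.46, −0.41 and −0.38). Its siCTL libraries stood apart, at 25.03 and 19.2 CPM, 35.4% of its exonic bases are shared with other genes, and all 3 calls were lost without siCTL replicate 1 (−0.26, −0.22 and −0.18) and in DESeq2. They were also lost without siCARM1 replicate 2 (−0.25), siCHD4 replicate 1 (−0.35) and siKDM1A replicate 2 (−0.20), and the siKDM1A call with a length correction (−0.23). COX7C, with the highest level of nuclear complex IV members (248 FPKM in siCTL), was called lower in siCHD4 alone, at 134 and 123 CPM against 160.2 and 157. That value of −0.30 fell under the fold minimum without siCHD4 replicate 2 (−0.24) and with a GC correction (−0.24).

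The isoform pairs of complex IV showed which forms these cells hold. COX4I1, COX6A1, COX7A2, COX7B and COX8A were at 115, 10.6, 69.6, 54.9 and 22.1 CPM in siCTL. Their partners COX4I2, COX6A2, COX7B2 and COX8C had at most 1 count in any library and COX7A1 at most 2. COX6B2, a form known from testis, was at 1.89 and 2.17 CPM in siCTL and 0.585 and 0.548 CPM in siCARM1, the largest fitted change of any tested nuclear member (−1.83, standard error 0.359) on counts of 12 to 57 per library. NDUFA4, a subunit of complex IV in spite of its name, lay between −0.03 and 0.10 with no call, while its paralogue NDUFA4L2 had 2 to 15 counts per library.

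Complex V held large falls in 2 of the 3 genes for the c subunit of the ATP synthase rotor, that of ATP5MC2 being the largest among called nuclear members of at least 5 CPM in siCTL. These genes, ATP5MC1, ATP5MC2 and ATP5MC3, are known to encode the same mature protein with different import sequences. ATP5MC2 (ENSG00000135390.21, chromosome 12 of GRCh37 from 54026510 to 54071192) was at 129.6 and 121 CPM in siCTL, 44.03 and 46.0 CPM in siCHD4, and 81.3 and 80.4 CPM in siGATAD2A. It was at 124 and 116 CPM in siCARM1, 133 and 132 in siHDAC2, and 116 and 118 in siKDM1A. The log2 fold change was −1.48 in siCHD4 (standard error 0.054, adjusted p = 1.5e-20) and −0.63 in siGATAD2A (standard error 0.051, adjusted p = 7.4e-12), and −0.10 to 0.08 in the other 3.

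ATP5MC3 (ENSG00000154518.10) was at 145 and 148 CPM in siCTL and 81.1 and 79.4 CPM in siHDAC2. The change was −0.87 on the log2 scale, with a standard error of 0.048 (adjusted p = 5.4e-15). In the other 8 knockdown libraries it was at 136 to 143 CPM, and its log2 fold changes were −0.07 to −0.06 without a call. ATP5MC1, at 56.0 and 57.8 CPM in siCTL, was called nowhere, and stood at −0.24 in siCHD4 and 0.16 in siGATAD2A. So each of the 2 genes with a large fall fell in knockdowns where the other was not called.

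Other complex V members fell in siCHD4, among them ATP5PD (−0.76) and ATP5F1D (−0.51) and the γ subunit gene ATP5F1C (−0.60). The siCHD4 count was 5 lower and 1 higher of 19 tested, and the siGATAD2A count 3 and 1. The lower shares, 26.3% and 15.8%, stood beside 25.1% and 18.4% of all tested genes. The higher share was 5.26% in both, beside 23.7% and 15.4%. ATP5PB, of the peripheral stalk, rose in siCARM1 (0.32), siGATAD2A (0.42) and siKDM1A (0.34), from 115 and 118 CPM in siCTL to 153 and 159 CPM in siGATAD2A, and its siCARM1 value fell under the fold minimum with a GC correction (0.24). ATP5MK, a small membrane subunit, rose by 0.29 in siCHD4 and 0.31 in siHDAC2. Both values fell under the fold minimum with a correction for GC content or with unstranded counts, and the siCHD4 value with a length correction (0.15). ATP5F1B, the catalytic β subunit and the nuclear member with the highest level (475 FPKM in siCTL), lay between −0.09 and 0.07 with no call.

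**Figure D4:**
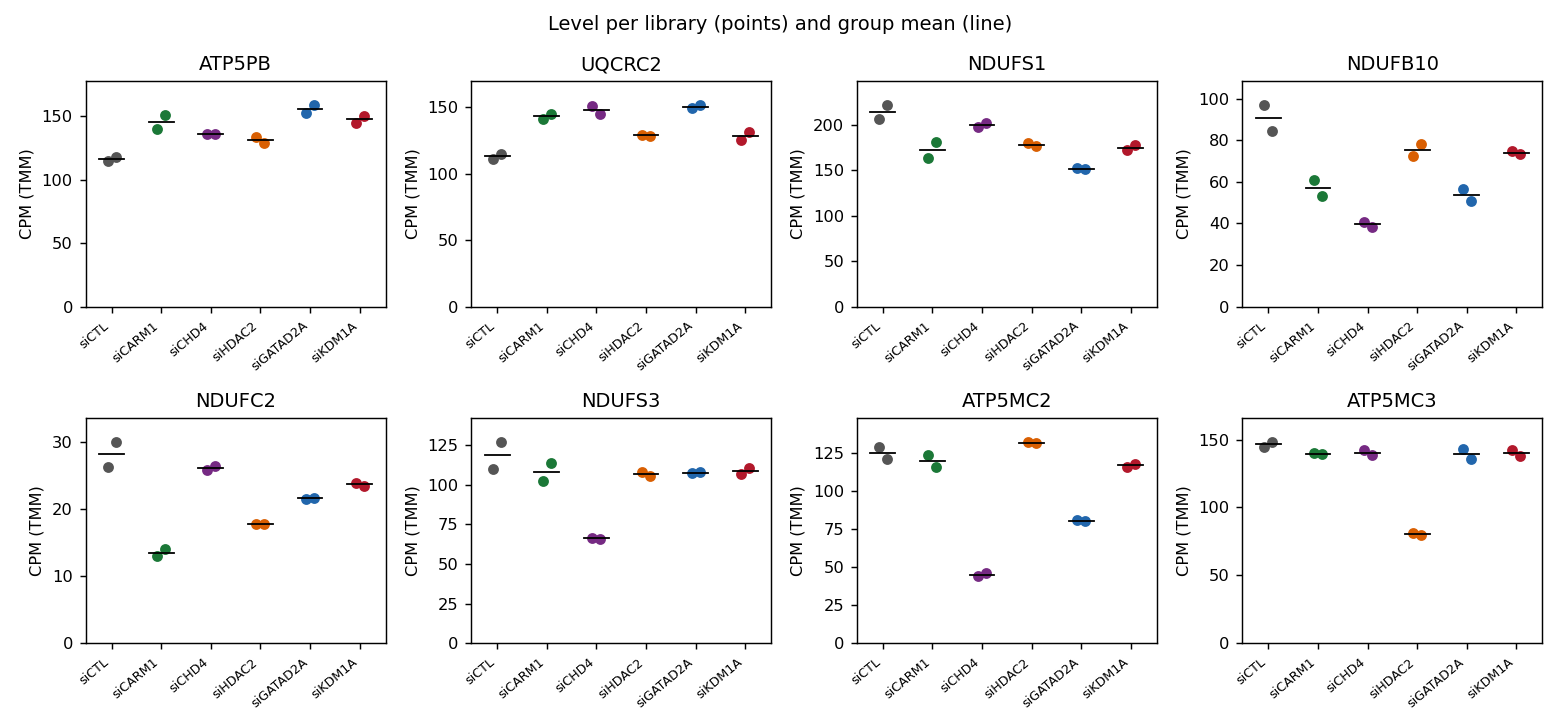
Level in CPM (y axes, from 0) of 8 nuclear members in each library (points) of the 6 groups, with a line at the mean of 2. UQCRC2 and ATP5PB stand above siCTL in every knockdown, NDUFB10 stands below it in every knockdown, ATP5MC2 is lowest in siCHD4 (44.03 and 46.0 CPM) and ATP5MC3 in siHDAC2 (81.1 and 79.4 CPM).

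The mitochondrial genes were dominated by MT-CO1. It was at 4168 and 4129 CPM in siCTL, 3909 and 3602 in siCARM1, 4019 and 4033 in siCHD4, 4852 and 4727 in siHDAC2, 4560.1 and 4603 in siGATAD2A, and 4901 and 5177 in siKDM1A. The groups did not overlap with siCTL, and the log2 fold changes were −0.14, −0.04, 0.21, 0.14 and 0.28, each with a standard error of 0.034. It was called in siKDM1A (adjusted p = 7.9e-08 in edgeR), and that call was lost without siKDM1A replicate 2 (0.24) and with a GC correction (0.22). The difference between siKDM1A and siCARM1 was 0.42 (standard error 0.034, adjusted p = 2.2e-11 in edgeR). Per transcript length, MT-CO1 stood at 2641 FPKM in siCTL, MT-CO3 at 521, MT-CO2 at 336, MT-CYB and MT-ATP6 near 250, and MT-ND3 at 36.7.

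MT-CYB, the only mitochondrial subunit of complex III, was called in 3 knockdowns. It was at 299 and 281 CPM in siCTL, 385 and 345 in siHDAC2, 386 and 352 in siGATAD2A, and 342 and 361 in siKDM1A, all 6 above siCTL. The log2 fold changes were 0.33, 0.35 and 0.28 (standard errors of 0.054), with adjusted p of 1.6e-05, 2.6e-06 and 0.00011. The siHDAC2 call was lost without siHDAC2 replicate 1 (0.25), and the siKDM1A call without siCTL replicate 2 (0.23) or siKDM1A replicate 2 (0.24). The siKDM1A call was also lost with a GC correction (0.21) and with unstranded counts (0.22).

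The 7 mitochondrial genes of complex I took most of the other calls. In siGATAD2A, MT-ND2 (0.36), MT-ND4L (0.38), MT-ND4 (0.29), MT-ND5 (0.33) and MT-ND6 (0.31) were called higher, 5 of 7, while MT-ND1 stood at 0.21 and MT-ND3 at 0.05. MT-ND6 is the only one of the 13 encoded on the other strand. Its siGATAD2A call, and that of MT-ND4L, were lost without siCTL replicate 2, with values of 0.25 and 0.28. The MT-ND6 call was also lost with unstranded counts (0.20).

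MT-ND2 was also higher in siCHD4, at 157 and 184 CPM against 122 and 128 in siCTL (0.45, standard error 0.060, adjusted p = 1.2e-07), where MT-CO2, MT-ATP6 and MT-CO3 stood at −0.18, −0.16 and −0.11 without a call. MT-ND3 was higher in siCARM1 alone, at 16.8 and 19.5 CPM against 14.0 and 11.9 (0.49, standard error 0.105, adjusted p = 0.00029), where MT-ND1 stood at −0.20. MT-ND4 was higher in siHDAC2 (0.29), a call lost with a GC correction (0.23) and with counts taken without regard to strand (0.20). MT-ND5 and MT-ND4L were higher in siKDM1A (0.28 and 0.27), both calls being lost without siCTL replicate 2 or siKDM1A replicate 2, and MT-ND4L also without siKDM1A replicate 1. Both were also lost with a GC correction (0.21 and 0.21) and with unstranded counts (−0.03 and 0.22), and MT-ND4L in DESeq2. MT-CO2, MT-CO3, MT-ATP6, MT-ND1 and MT-ATP8 were called nowhere. MT-ATP8 had 3 to 17 counts per library, and 22.2% of its bases lie within MT-ATP6, where a pair on both genes is not counted.

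**Figure D5:**
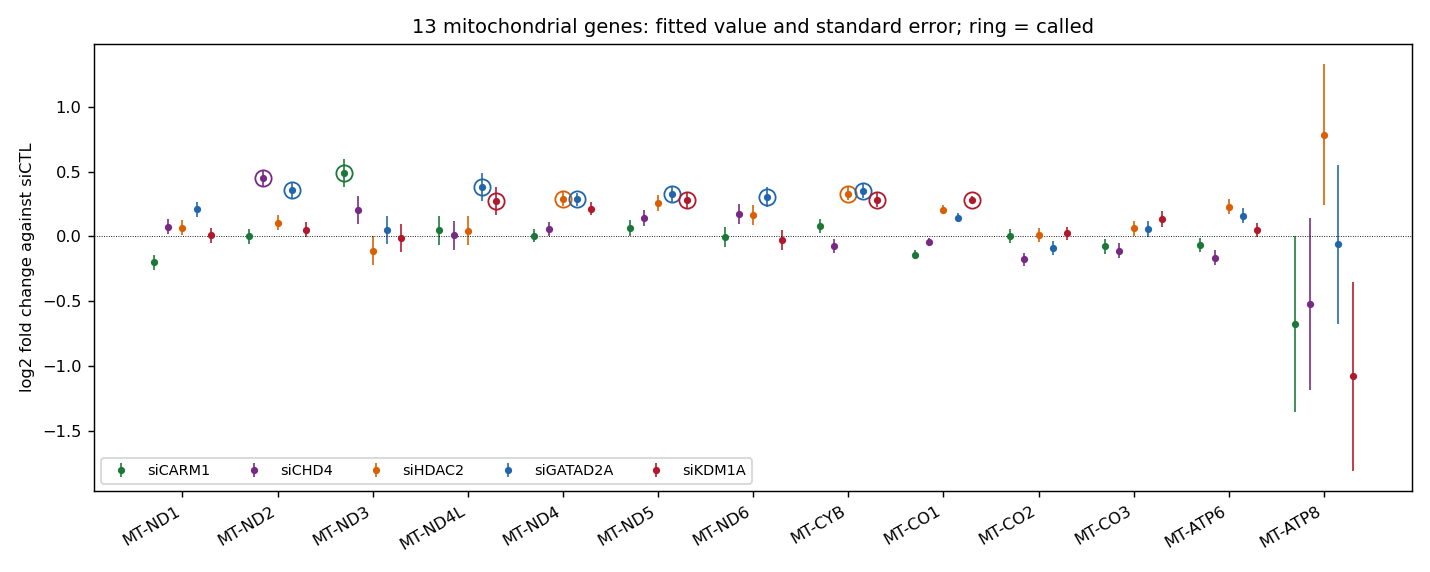
Log2 fold change against siCTL (y axis) of the 13 mitochondrial genes (x axis) in each knockdown (colour). Bars are 1 standard error derived from edgeR's F statistic, and a ring stands around called values. All rings lie above 0, 6 of them in siGATAD2A, and MT-ATP8, on 3 to 17 counts, has standard errors of 0.54 to 0.73.

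Counts on mitochondrial genes depend on steps outside the cells. Mitochondrial ribosomal RNA genes had 116 to 3424 counts per library, while the labels name total RNA and no selection step. Nuclear copies of mitochondrial sequence took few counts, with means of 567 on MTCO1P12 and 407.5 on MTATP6P1 in siCTL, against 79260 and 93217 on MT-CO1. Pairs with several locations, 5.44% to 10.6% of pairs and highest in siCTL replicate 1, are left out of these counts. Their part in the results was not tested.

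Other lists of genes for mitochondria and ribosomes were counted in the same way. Of 76 tested mitochondrial ribosomal protein genes, 24 were lower and 5 higher in siCHD4, 13 and 3 for siCARM1, 12 and 1 for siHDAC2, 8 and 2 for siKDM1A, and 6 and 2 for siGATAD2A. The lower share was 31.6% in siCHD4, 17.1% for siCARM1 and 15.8% for siHDAC2, above the backgrounds of 25.1%, 14.8% and 9.27%, but 10.5% for siKDM1A and 7.89% for siGATAD2A, below 11.8% and 18.4%. The higher share of this list was 6.58% in siCHD4, against 23.7%, and 1.32% to 3.95% in the rest, against 10.4% to 15.4%. Its medians lay between −0.16 and −0.04. Of 86 tested cytosolic ribosomal protein genes, 5 were lower and 11 higher in siCHD4, 10 and 4 for siGATAD2A, 5 and 4 for siKDM1A, 5 and 2 for siCARM1, and 2 and 2 for siHDAC2, with medians from −0.06 to 0.03. Their lower share was 5.81% in siCHD4, siKDM1A and siCARM1, 11.6% in siGATAD2A and 2.33% in siHDAC2, each below its background. The higher share was 12.8% in siCHD4, against 23.7%, and 2.33% to 4.65% in the rest, against 10.4% to 15.4%. The difference between these lists and the respiratory genes was not tested.

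Genes that build the complexes were called in both directions. Of 61 tested assembly factors, 13 were lower and 12 higher in siCHD4, 10 and 7 for siKDM1A, 8 and 6 for siGATAD2A, 8 and 4 for siHDAC2, and 6 and 6 for siCARM1. In siCHD4 that is 21.3% lower and 19.7% higher, below the backgrounds of 25.1% and 23.7%. The lower share was above background in siKDM1A (16.4% against 11.8%) and siHDAC2 (13.1% against 9.27%), and the remaining shares were below it. LYRM7, which helps insert the iron-sulfur protein into complex III, fell by 1.26 in siCHD4 on the log2 scale and by 0.28 in siGATAD2A. TMEM70, needed for building ATP synthase, was lower in 4 knockdowns (−0.30, −0.49, −0.29 and −0.53 in siCARM1, siHDAC2, siGATAD2A and siKDM1A) and stood at −0.15 in siCHD4. ATPAF1, a chaperone of the β subunit, was higher in siCHD4 (0.58).

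Among 17 tested genes of electron carriers, CYCS was called higher in all 5 knockdowns. It encodes cytochrome c, which moves between complexes III and IV, and was at 85.8 and 91.3 CPM in siCTL and 158 and 172 CPM in siCHD4. Its log2 fold changes were 0.51, 0.90, 0.37, 0.72 and 0.47 in siCARM1, siCHD4, siHDAC2, siGATAD2A and siKDM1A, with standard errors of 0.068 to 0.070. COQ5, an enzyme of ubiquinone synthesis, stood at 26.03 CPM in the siCTL mean and 12.97 CPM in siCHD4, and was called lower in siCHD4 and in siGATAD2A (−0.40). The list as a whole had 6 lower and 3 higher in siCHD4, 3 and 5 for siCARM1, 3 and 2 for siGATAD2A, 1 and 1 for siHDAC2, and 0 and 3 for siKDM1A. The lower share was above background in siCHD4 (35.3% against 25.1%) and siCARM1 (17.6% against 14.8%). The higher share was above it in siCARM1 (29.4% against 14.6%) and siKDM1A (17.6% against 14.0%), and the remaining shares lay below it.

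Genes that keep and express the mitochondrial genome had 7 lower and 7 higher of 35 tested in siCHD4, 5 and 2 for siCARM1, 3 and 5 for siGATAD2A, 3 and 3 for siKDM1A, and 2 and 0 for siHDAC2. Lower and higher shares were both 20% in siCHD4, below the backgrounds of 25.1% and 23.7%, and the shares in the other knockdowns were also below background. LRPPRC, which stabilises mitochondrial mRNAs, was higher in 4 (0.35, 0.62, 0.47 and 0.28 in siCARM1, siCHD4, siGATAD2A and siKDM1A) and stood at 0.23 in siHDAC2. TWNK, the mitochondrial DNA helicase, was higher in siCHD4 (0.90) and siGATAD2A (0.37), and MGME1, a mitochondrial exonuclease, was lower in 4, by 0.91 in siGATAD2A. Of 16 nuclear regulators, 1 to 3 were lower and 1 to 5 higher per knockdown. Only the lower share in siKDM1A (18.75% against 11.8%) and the higher shares in siCHD4 (31.25% against 23.7%) and siGATAD2A (18.75% against 15.4%) were above background. PPRC1, a coactivator of the PGC-1 family, was higher in siCHD4 (0.63) and siGATAD2A (0.46), and PPARGC1A, another member of that family, fell in siCHD4 (−0.69) and siKDM1A (−0.64). Of 18 tested genes of the TCA cycle and pyruvate dehydrogenase, 1 to 3 were lower and 0 to 3 higher, all shares being below background. IDH2, a mitochondrial isocitrate dehydrogenase, was at 88.0 CPM in the siCTL mean and 38.3 CPM in siCHD4, and was called lower there, in siGATAD2A (−0.95) and in siKDM1A (−0.39).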

How the data were processed

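The submitters' notes name CASAVA 1.4, STAR 2.7.10 and hg19, and the paper's methods name other tools for its own figures. The deposited files hold the authors' raw counts of pairs on each Ensembl gene, in 3 columns by strand, and column 4 (the strand of the directional kit) was used. Gene identifiers (60660) were matched to GENCODE 44 on GRCh37 (58662, 96.7%). The build behind the counts is not settled by these sources. Library totals on genes were 19308315 to 28648657 counts, and pairs on 2 genes or with several locations are not in them, so overlapping or copied genes read low.

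The 12830 coding genes whose FPKM was above 0.5 as a mean of any group were tested with edgeR 4.0.16 (R 4.3.3, TMM, quasi-likelihood, 6 group means, 12 libraries) and Benjamini-Hochberg adjustment. Standard errors were derived from that fit, as the absolute log2 fold change divided by the square root of its quasi-likelihood F statistic. DESeq2 gave its own. Levels between genes are FPKM over canonical transcripts, except NDUFB6, which has none and took its exonic length. Members and lists were chosen with earlier results of these data known. Single items that the rule below would name are not all reported here.

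Named genes are the 13 mitochondrial ones, per comparison and direction the 3 largest called nuclear members of at least 5 CPM whose libraries do not overlap siCTL, members called in at least 4, isoform pairs, the highest nuclear member of each complex, and up to 3 genes of each other list. Others were chosen after their values were seen: NDUFA13, NDUFB3, NDUFA1, NDUFA5, NDUFA6, NDUFA9, NDUFB11, CYC1, COX6B2, UQCRHL, SDHA, SDHB, SDHD, ATP5PD, ATP5F1C, ATP5F1D. Alternatives were RLE size factors, DESeq2 1.42.0, a replicate block, only the 2 groups, unstranded counts, other filters, no fold minimum, library sizes without the mitochondrial genome, GC and length corrections (loess, span 0.3), and each library left out.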

Additional observations from a re-analysis of the deposited data

Results flagged for a closer look

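Each of 5 nuclear members had 1 knockdown whose log2 fold change against siCTL differed from that in each of the other 4, in 1 direction, by at least 1.5-fold and with an adjusted p of 0.05 or less in a direct edgeR test of the difference. Other members passed that test with smaller differences. The smallest of the 4 differences is given. ATP5MC2 in siCHD4 stood apart by −0.84 (standard error 0.055, adjusted p = 3.1e-14) and NDUFS3 in siCHD4 by −0.69 (standard error 0.059, adjusted p at most 1.5e-11). ATP5MC3 in siHDAC2 stood apart by −0.80 (standard error 0.047, adjusted p at most 3.5e-14). COX6B2 in siCARM1 stood apart by −1.16 (standard error 0.386, adjusted p = 0.018 at most in edgeR) and NDUFA13 in siGATAD2A by 0.63 (standard error 0.173, adjusted p = 0.0032 at most), both on low counts.

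The strand opposite to the 12 mitochondrial genes of the plus strand also carried counts, in a column that the comparisons do not use. They summed to 745 and 712 CPM in siCTL, 895 CPM in the siCHD4 mean, 761 CPM in siHDAC2 and 902 CPM in siGATAD2A, with every library of these 3 groups above both siCTL libraries. They were 678 CPM in the siCARM1 mean and 701 CPM in siKDM1A. On MT-ND5 the opposite strand held 284 CPM in the siCTL mean, more than the gene's own strand. Groups of 2 libraries are too small for a test of single outlying libraries.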

How the results depend on the processing

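Of 150 recomputed counts of called members, 131 stayed within 1.5 times. Shares per library were recomputed with unstranded counts for the mitochondrial genes and outside the mitochondrial genome for the nuclear members. Of 24 such shares only 6 stayed within 1 SD of the group's libraries, and of 130 recomputed medians 97 did. With no fold minimum, lower and higher members came to 28 and 11 in siCARM1 and 13 higher in siCHD4, 19 and 10 in siHDAC2, 25 lower in siGATAD2A, and 19 and 13 in siKDM1A. A GC correction gave 3 higher in siCHD4, and 10 lower and 2 higher in siKDM1A. A length correction gave 3 higher in siCHD4 and 8 in siHDAC2. Counts without regard to strand gave 2 higher in siHDAC2 and 4 in siKDM1A, and turned MT-ND5 in siKDM1A from 0.28 to −0.028 (adjusted p = 0.66 in edgeR), since the opposite strand then enters. With 1 library left out, lower and higher members ranged over 10 to 18 and 6 to 9 in siCARM1, 20 to 28 and 4 to 8 in siCHD4, 5 to 7 and 4 to 7 in siHDAC2, 8 to 16 and 10 to 13 in siGATAD2A, and 4 to 10 and 3 to 9 in siKDM1A. Of 60 calls of named members, 35 held under every alternative. The causes were not tested.

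The replicate block gave 12 lower members in siGATAD2A and 5 in siHDAC2, and of named calls only NDUFS1 in siHDAC2 missed the fold minimum (−0.26). Same-numbered replicates of 2 groups correlated in their deviations by −0.14 to 0.14 over 15 pairs of groups, so the numbers were not taken to pair the libraries. With 2 libraries per group and called folds near 1.2, calls at the minimum are the least certain, and those on COX6B2, UQCRHL and NDUFA13 rest on few counts.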
